A study of Mus musculus with 18 samples.

Results

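The genes described here are the neighbours of Pcm1 on mouse chromosome 8. They are all genes other than Pcm1 that overlap the interval from 31239752 to 51332344 of GRCm38, which reaches 10 Mb to either side of the gene, and that had 10 or more counts in at least 1 of 18 RNA-seq libraries. There are 80 of them among 17545 genes tested, with 44 on the centromere side of Pcm1 (proximal) and 36 on the telomere side (distal). The annotation lists 301 genes in the interval without Pcm1, of which 158 were in the count tables, and 78 of those stayed under 10 counts in every library. Of the 80 genes, 71 code for protein, 5 are pseudogenes and 4 are long noncoding RNAs or unclassified transcripts.

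The study dissected frontal cortex, striatum and hippocampus from adult wild-type (WT) mice and from their Pcm1-/- littermates, labelled PCM1 KO and called KO below, with 3 animals of each genotype. The labels give 1 strain, C57 Bl6J, for both genotypes. The KO allele is a gene-trap insertion made in E14Tg2a.4 embryonic stem cells, a line from another mouse strain, and the methods state at least 3 generations of backcross to C57BL/6J. The line goes back to 1 clone, and none of the sources used here gives the genotype of the flanking DNA.

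Pcm1 codes for a scaffold protein of centriolar satellites, the granules that carry proteins to the centrosome and the base of the cilium. When a mutation made in cells of one strain is crossed into another, selection for the mutation at each generation also keeps the DNA next to it, and the kept stretch shortens only by recombination. Genes in such a passenger stretch can differ between mutant and wild-type littermates because the alleles differ, while a local effect of an insertion on its neighbours acts through the insertion itself. In these data each KO animal carries the insertion together with whatever stretch came with it, so the 2 cannot be told apart for any single gene, and what follows describes where along the chromosome the differences lie.

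Library totals on genes ran from 24950537 to 33405081 reads. Levels are given as CPM, the reads on a gene scaled to the total on all genes, with TMM factors set within each region, so that levels in different regions are set side by side without a test, and fold changes are KO against WT on a log2 scale. Pcm1 itself measured 117 to 173 CPM over the 9 WT libraries and 11.8 to 17.8 CPM over the 9 KO libraries, a log2 fold change of −3.42 in counts summed over the 3 regions of each animal (standard error, SE, 0.0559, adjusted p = 3.47e-07, edgeR). All adjusted p-values were adjusted over the 17545 genes.

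In counts summed per animal, 11 of the 80 neighbours passed an adjusted p under 0.05, against 1.39% of all genes tested. The 7 that were higher in KO are Gsr, Leprotl1, Saraf, Cldn23, Prag1, AI429214 and Sgcz, and the background in that direction is 0.992%. The 4 that were lower are Gm5345, Slc7a2, Fgl1 and Dctd, with a background of 0.393%. Gm5345 and Fgl1 reached 10 counts in WT libraries only, so a lower level in KO is partly built into their entry among the 80. With limma voom on the 18 libraries and animal as a block, with an estimated correlation, Prag1 was not called (adjusted p = 0.0992) and the other 10 were. At an unadjusted p under 0.05 the neighbours numbered 28 of 80, or 35.0%, against 17.2% of all genes. The KO and WT animals did not overlap for 33 neighbours, or 41.2%, against 22.8%. Leaving out 1 animal at a time left between 0 and 11 neighbours called. The count was 0 by edgeR without KO animal 1, WT animal 1 or WT animal 2, where 21, 25 and 23 neighbours had an unadjusted p under 0.05, and it was 2 without KO animal 2, 1 without KO animal 3 and 11 without WT animal 3. Over all genes the same step left between 4 and 398 genes called. The share of all genes at an unadjusted p under 0.05 in those fits is not given here.

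**Figure D1:**
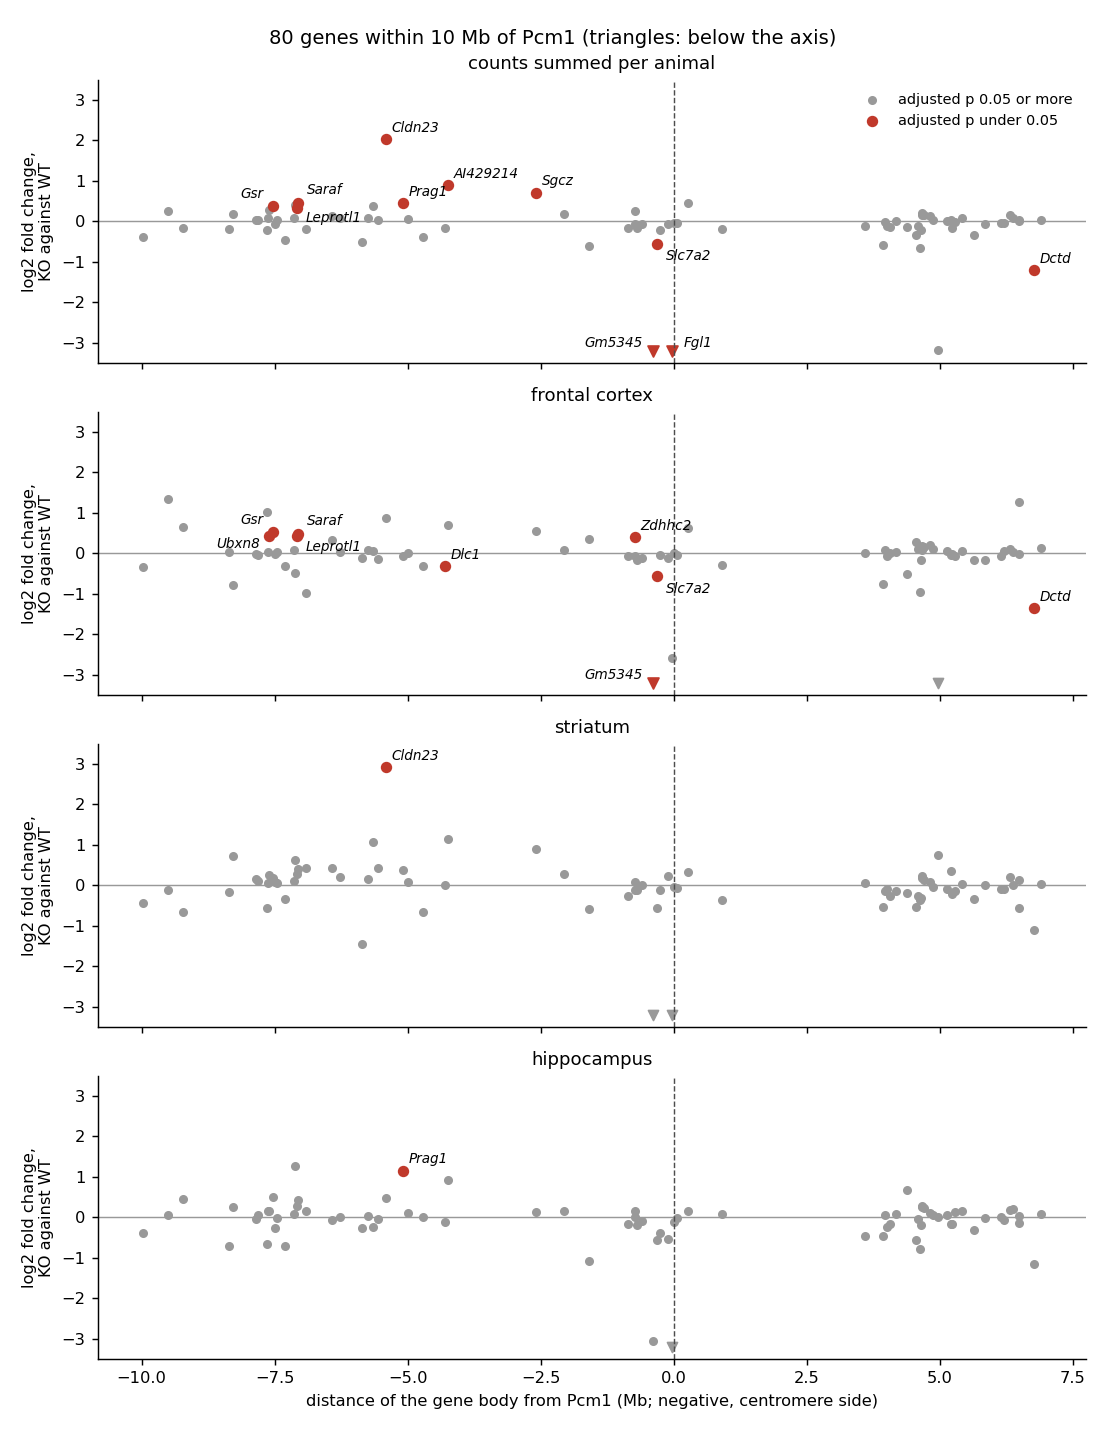
Log2 fold change of the 80 neighbours (y axis) against the distance of each gene from Pcm1 in Mb (x axis, negative on the centromere side), for counts summed per animal and for each region; red points pass an adjusted p under 0.05 and triangles lie below the axis. Of the 11 red points in the top panel, 10 lie on the proximal side and 1, Dctd, on the distal side.

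The called genes lay mostly on one side of Pcm1. On the proximal side 10 of 44 tested neighbours were called in the summed counts, or 22.7%, and on the distal side 1 of 36, or 2.78%. Of the other genes of chromosome 8, 11 of 834 were called, or 1.32%, and on all other chromosomes 218 of 16416, or 1.33%. At an unadjusted p under 0.05 the sides differed less, with 40.9% of proximal and 27.8% of distal neighbours, against 17.2% of all genes. Among genes whose average log2 CPM reached 1, the median absolute log2 fold change was 0.169 for 32 proximal neighbours, 0.0746 for 25 distal neighbours and 0.0864 for genes on other chromosomes. The signed median over the 57 such neighbours was 0.00145.

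The count did not fall steadily with distance on the proximal side. Within 1 Mb of Pcm1, 3 of 10 proximal genes were called by edgeR, Gm5345, Slc7a2 and Fgl1, and these were lower in KO. DESeq2 also called 3 there, Slc7a2, Vps37a, which was lower, and Zdhhc2, which was higher in KO, and gave no adjusted p for Gm5345 and Fgl1. Gm5345 and Fgl1 passed the filter of 10 counts through WT libraries only, so their direction was partly set by that filter. Between 1 and 2.5 Mb none of 2 was called by edgeR or by DESeq2, with 1 at an unadjusted p under 0.05. Between 2.5 and 5 Mb edgeR called 2 of 5 and between 5 and 10 Mb 5 of 27, and these 7 were higher in KO. DESeq2 called 4 and 6 in these stretches, adding Ubxn8, which was higher, and Dlc1 and Trmt9b, which were lower in KO. Its calls numbered 1134 of 16416 genes on other chromosomes and 49 of 834 on the rest of chromosome 8, more than by edgeR. Trmt9b, at 4.72 Mb with a log2 fold change of −0.39 in the summed counts, was named after its values were seen. On the distal side none of 4 genes within 1 Mb was called by edgeR or by DESeq2, with 0 at an unadjusted p under 0.05, and no tested gene lay between 1 and 2.5 Mb. Between 2.5 and 5 Mb none of 17 was called by either tool, with 7 at an unadjusted p under 0.05. Between 5 and 10 Mb edgeR and DESeq2 each called 1 of 15, Dctd. With limma voom and animal as a block Ufsp2, at 4.64 Mb on the distal side, was called as well. The longest stretch without a neighbour, 2.69 Mb, lies on the distal side between Gm6180 and Fat1, and the outermost distal neighbour is Tenm3 at 6.90 Mb.

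**Figure D2:**
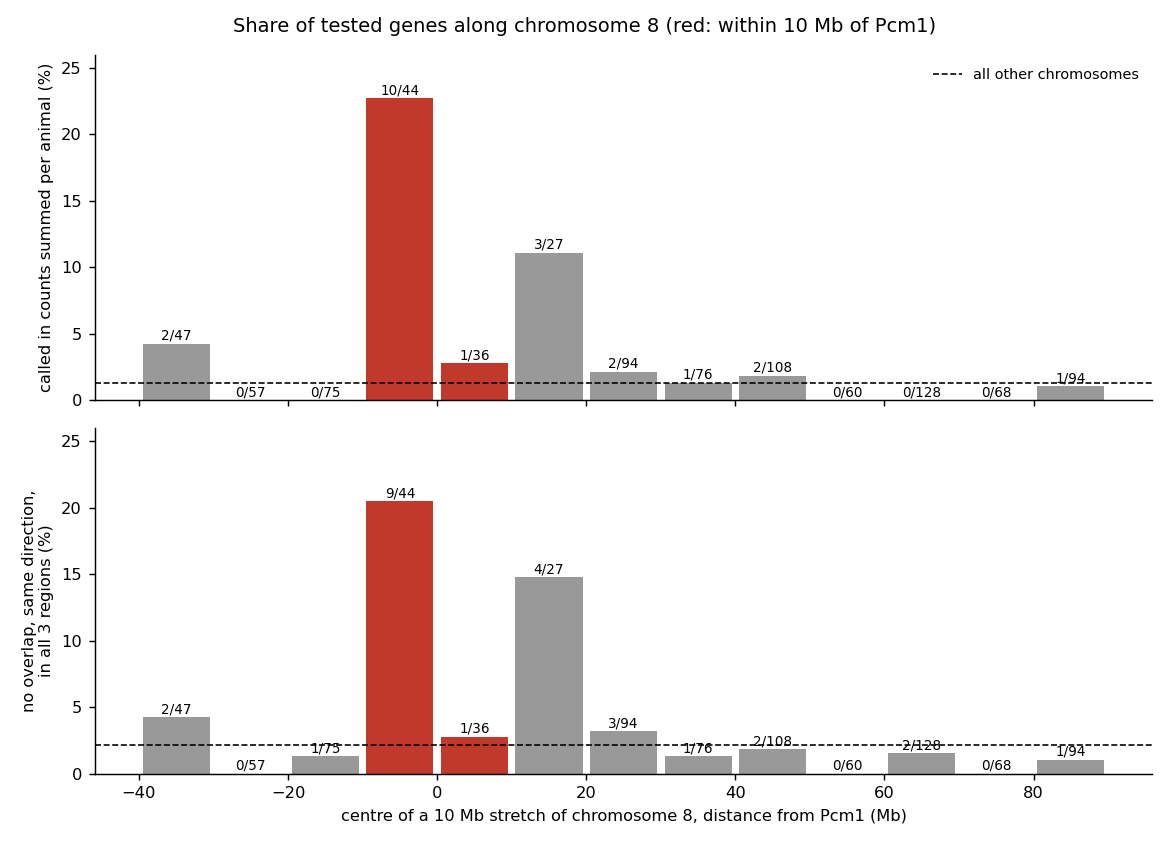
Percentage of tested genes in each 10 Mb stretch of chromosome 8 (x axis, distance of its centre from Pcm1 in Mb) that were called in counts summed per animal (top) or that did not overlap between genotypes in the same direction in all 3 regions (bottom), with numbers of genes above the bars and the level of all other chromosomes as a dashed line. The proximal 10 Mb holds 10 called of 44, the distal 10 Mb 1 of 36 and the stretch from 10 to 20 Mb on the distal side 3 of 27.

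Beyond the interval on the proximal side, 75 tested genes lay between 10 and 20 Mb and 57 between 20 and 30 Mb. In the summed counts edgeR called none of them. DESeq2 called 1 and 2 of them, smaller shares than its 1203 of all 17545 genes. At an unadjusted p under 0.05 there were 14 and 8, shares close to and below the 17.2% of all genes. In frontal cortex alone edgeR called 4 of the 75 and 1 of the 57, against 1.74% of all genes. Between 30 and 40 Mb, 2 of 47 were called in the summed counts, or 4.26%. On the distal side 3 of 27 genes between 10 and 20 Mb were called, Spcs3 at 13.2 Mb, Gpm6a at 13.6 Mb and Hpgd at 15.0 Mb. Their log2 fold changes were 0.28, 0.30 and −0.89. They lie outside the interval and were named after their values were seen.

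Some called neighbours stood next to each other. In the order of the 80 tested genes, 8 of the 11 called genes formed 4 pairs of direct neighbours, Leprotl1 with Saraf, Cldn23 with Prag1, AI429214 with Sgcz, and Gm5345 with Slc7a2. With 10 of 44 proximal genes called, some stand side by side by their number alone, and this count was not tested. Genes that were not called by edgeR in the summed counts stood among them, some near 0 and some lower in KO. Between Gsr and Leprotl1, Gtf2e2, a subunit of a general transcription factor, had a log2 fold change of 0.02 and Rbpms had −0.46 (adjusted p = 0.157). Next to Prag1, Lonrf1 had 0.05 and Trmt9b −0.39 (adjusted p = 0.0959). Gtf2e2 and Lonrf1 were also named after their values were seen.

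**Figure D3:**
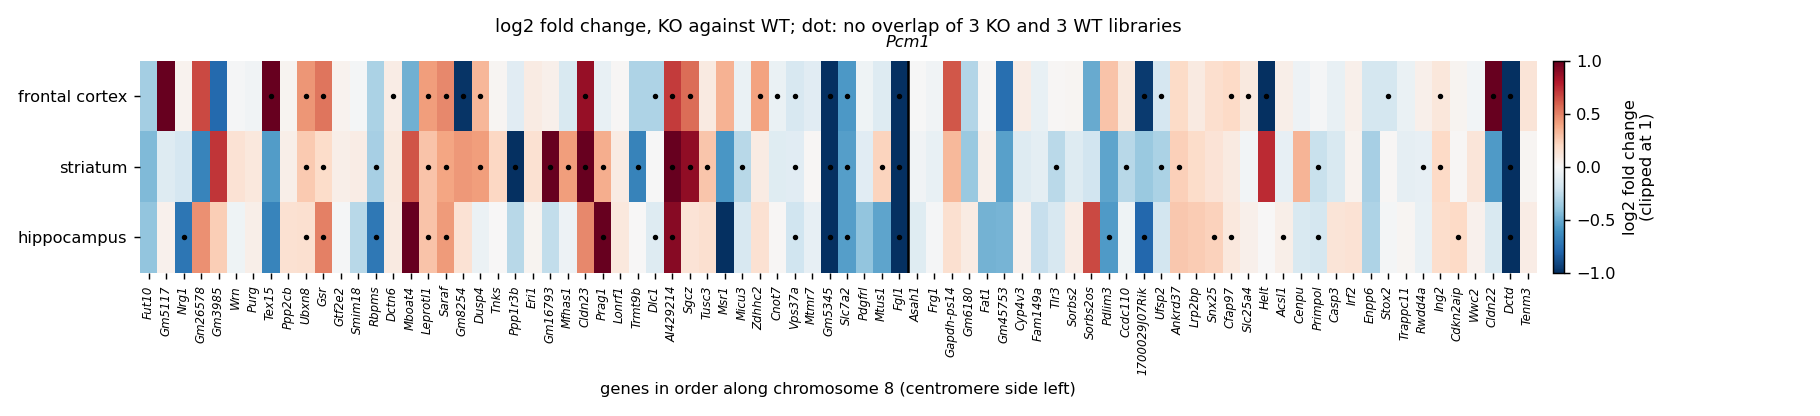
Log2 fold change of the 80 neighbours in their order along chromosome 8 (columns) in the 3 regions (rows), as colours clipped at 1 in either direction, with a dot where the 3 KO and 3 WT libraries of a region do not overlap. Dots in all 3 rows with the same colour mark 10 genes, 9 to the left of Pcm1 and 1 to the right.

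A second measure, which uses no model, set 10 neighbours apart. For 10 of 80, or 12.5%, the 3 KO libraries lay on the same side of the 3 WT libraries in all 3 regions, against 2.17% of all genes tested. The libraries come from the same 6 animals in each region, so the regions are not independent. Ubxn8, Gsr, Leprotl1, Saraf and AI429214 were higher in KO, and Vps37a, Gm5345, Slc7a2, Fgl1 and Dctd were lower. Of these 10, 9 are proximal and 1 is distal. Gm5345 and Fgl1 entered the 80 through their WT libraries alone, so their direction was partly set by the filter.

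The genes that touch Pcm1 most closely differed from each other. Fgl1, a secreted protein of the fibrinogen family made mostly by liver, lies 24.6 kb away on the proximal side (GRCm38 chr8:41191434-41215156, minus strand). In striatum its 3 WT libraries held 19, 16 and 34 reads and the 3 KO libraries 0 each. With the 3 KO libraries together at a floor of 3 counts, the level was at least 23.9-fold lower. In hippocampus WT libraries held 12, 3 and 12 reads and KO libraries 0, which is at least 9.68-fold lower by the same floor. In frontal cortex the gene was near absent in both genotypes, with 7 reads over the WT libraries and 1 over the KO libraries, a ratio of 7.96 with a 95% interval from 1.02 to 359.0. Although the CPM of the groups do not overlap there either, the lowest WT and the highest KO library each held a single read. Intervals and floors cover counting error only. In the summed counts Fgl1 fell (adjusted p = 0.0248, edgeR).

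Asah1 and Frg1, the nearest distal genes, had levels that overlapped between genotypes in every region. Asah1, the lysosomal acid ceramidase, lies 7.85 kb from Pcm1 on the other side. Its WT libraries measured 59.7, 58.3 and 56.5 CPM in frontal cortex and its KO libraries 59.6, 55.2 and 59.0 CPM. The log2 fold change in the summed counts was −0.05 (SE 0.0589, adjusted p = 0.670, edgeR). Frg1, a nuclear protein linked to RNA processing, lies 65.1 kb away and had −0.05 (SE 0.0711, adjusted p = 0.749, edgeR). The other distal genes nearest to Pcm1 are Gapdh-ps14, Gm6180 and Fat1, a giant cadherin, with 0.44, −0.18 and −0.13 in the summed counts and adjusted p-values of 0.527, 0.682 and 0.603 (edgeR).

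Next on the proximal side, Mtus1, which binds microtubules, and Pdgfrl, a receptor-like protein, were not called. Mtus1, 106 kb from Pcm1, had 89.2, 83.5 and 78.4 CPM in WT striatum and 98.8, 99.3 and 95.6 CPM in KO striatum, which do not overlap. In hippocampus it had 74.5, 41.7 and 58.8 CPM in WT and 38.7, 34.0 and 48.2 CPM in KO, which do. Its log2 fold changes were 0.23 and −0.53 there (adjusted p = 0.205 and 0.480, edgeR). Pdgfrl, 249 kb away, stayed between 0.402 and 1.56 CPM in all 18 libraries.

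Slc7a2, a membrane transporter of arginine and lysine 317 kb from Pcm1, was lower in KO by nearly the same factor in each region. The WT libraries measured 39.6, 34.2 and 34.0 CPM in frontal cortex, 50.2, 42.5 and 47.9 CPM in striatum and 48.5, 41.5 and 42.2 CPM in hippocampus. The KO libraries measured 25.6, 21.4 and 25.6 CPM, 33.4, 30.6 and 31.8 CPM, and 33.2, 27.2 and 29.7 CPM in the same order. Every KO library lay below every WT library of its region. The log2 fold changes were −0.57, −0.55 and −0.55 (adjusted p = 0.0244, 0.0921 and 0.391, edgeR), and in the summed counts −0.57 (SE 0.0791, adjusted p = 0.0329, edgeR).

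Gm5345, 385 kb from Pcm1, is a pseudogene whose transcript matched Gapdh over 1016 bases at 90.8% identity. Its WT libraries held 9, 15 and 7 reads in frontal cortex, 16, 10 and 16 in striatum and 18, 19 and 20 in hippocampus. Its KO libraries held between 0 and 3. Pooled by genotype, WT was 17.6 times KO in frontal cortex (95% counting interval 4.48 to 152.0), 14.6 times in striatum (4.65 to 73.4) and 8.76 times in hippocampus (3.99 to 22.8). It fell in the summed counts with a log2 fold change of −3.52 (SE 0.279, adjusted p = 0.00826, edgeR). Only reads with a single position were counted, and Gapdh itself, usually one of the most abundant transcripts, was at only 1.83 to 4.65 CPM over the 18 libraries, so the values of Gm5345 are uncertain. The similar pseudogene Gapdh-ps14, with 95.4% identity over 1008 bases, held 1 to 10 reads a library and was not called.

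**Figure D4:**
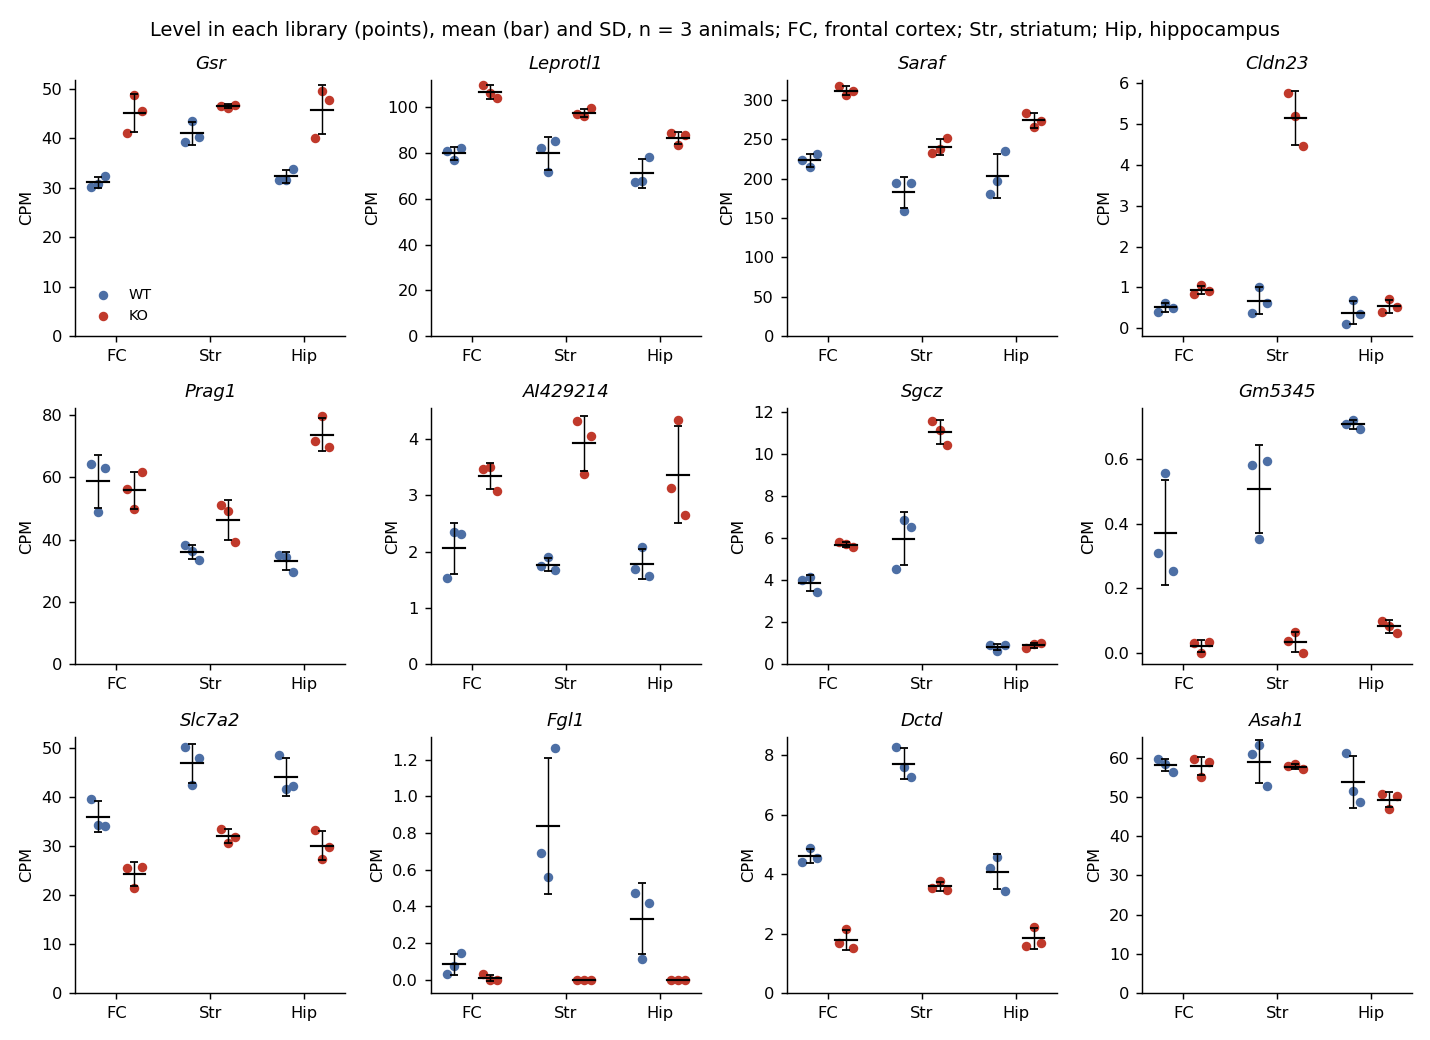
CPM of the 11 neighbours called in counts summed per animal, and of Asah1 for comparison (y axis, each from 0), in frontal cortex (FC), striatum (Str) and hippocampus (Hip); points are libraries, bars the mean and error bars the SD of 3 animals. KO points lie above WT points in all 3 regions for Gsr, Leprotl1, Saraf and AI429214, below them for Gm5345, Slc7a2, Fgl1 and Dctd, and in some of the regions for Cldn23, Prag1 and Sgcz.

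About 7 Mb from Pcm1 on the proximal side, 4 genes within a short stretch were higher in KO in every library of every region. Saraf, which damps the entry of calcium through store-operated channels, measured 224, 215 and 232 CPM in WT frontal cortex and 318, 307 and 311 CPM in KO frontal cortex. In striatum it measured 194, 159 and 194 CPM against 232, 238 and 252 CPM, and in hippocampus 181, 197 and 235 CPM against 284, 266 and 274 CPM. The KO level was 1.36 times the WT level in the summed counts (log2 fold change 0.44, SE 0.0600, adjusted p = 0.0317, edgeR). Its neighbour Leprotl1, a membrane protein of the endosomal path that affects receptor levels at the cell surface, measured 76.8 to 82.0 CPM in WT and 104 to 110 CPM in KO frontal cortex. Its log2 fold changes were 0.42, 0.29 and 0.29 in frontal cortex, striatum and hippocampus, and 0.33 in the summed counts (SE 0.0523, adjusted p = 0.0378, edgeR).

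Gsr, the glutathione reductase that keeps glutathione in its reduced form, measured 30.2, 30.7 and 32.4 CPM in WT frontal cortex and 41.0, 48.7 and 45.5 CPM in KO. In striatum the values were 39.2, 43.5 and 40.2 CPM against 46.6, 46.1 and 46.8 CPM, and in hippocampus 31.5, 31.6 and 33.7 CPM against 40.1, 49.5 and 47.8 CPM. The groups do not overlap in any region, and the difference was smallest in striatum. The log2 fold changes were 0.54, 0.18 and 0.50, and the test of a difference between regions gave an unadjusted p of 0.00769 and an adjusted p of 0.613 (edgeR). In the summed counts Gsr rose by 0.39 (SE 0.0582, adjusted p = 0.0363, edgeR). Ubxn8, which sits in the membrane of the endoplasmic reticulum, was called in frontal cortex with 0.44 (adjusted p = 0.0453, edgeR) and had 0.28 in the summed counts (adjusted p = 0.109, edgeR).

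AI429214, 4.24 Mb from Pcm1, was higher in KO in each region at low level. Its WT libraries measured 1.54 to 2.34 CPM in frontal cortex, 1.67 to 1.90 CPM in striatum and 1.56 to 2.09 CPM in hippocampus. Its KO libraries measured 3.07 to 3.49, 3.39 to 4.32 and 2.65 to 4.33 CPM. The log2 fold change in the summed counts was 0.90 (SE 0.123, adjusted p = 0.0317, edgeR). Vps37a, a subunit of the ESCRT-I complex that sorts membrane proteins 689 kb from Pcm1, went the other way by a small step, with 88.4 to 95.9 CPM over all WT libraries and 74.2 to 89.5 CPM over all KO libraries and no overlap within a region. Its log2 fold change was −0.17 (SE 0.0371, adjusted p = 0.0820, edgeR), which misses the threshold, while DESeq2 and limma voom with animal as a block called it.

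Dctd, 6.77 Mb from Pcm1, was the only distal gene that edgeR's main fit called in the summed counts or single regions. That fit used the quasi-likelihood test on all libraries, the count filter given above and no further term. Without the filter Helt, another distal gene, was called in frontal cortex (adjusted p = 0.0218, edgeR). Dctd codes for deoxycytidylate deaminase, which makes the precursor of thymidine nucleotides. Its WT libraries measured 4.41, 4.87 and 4.55 CPM in frontal cortex, 8.29, 7.59 and 7.27 CPM in striatum and 4.22, 4.59 and 3.43 CPM in hippocampus. The KO libraries measured 1.67, 2.17 and 1.50 CPM, 3.53, 3.77 and 3.47 CPM, and 1.60, 2.23 and 1.68 CPM. The highest KO library lay below the lowest WT library in each region, and striatum had the highest level in both genotypes. The log2 fold change was −1.36 in frontal cortex (adjusted p = 0.00927, edgeR), −1.10 in striatum (adjusted p = 0.0551, edgeR), −1.16 in hippocampus (adjusted p = 0.391, edgeR) and −1.21 in the summed counts (SE 0.123, adjusted p = 0.0206, edgeR). Its flanking genes Cldn22 and Tenm3, the latter a teneurin that guides neurons in making contacts, had 0.00 and 0.03 in the summed counts. For Cldn22 that value joins 1.28 in frontal cortex, −0.57 in striatum and −0.15 in hippocampus (adjusted p = 0.226, 0.731 and 0.847, edgeR), and its libraries did not overlap in frontal cortex.

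Dctd is also the only one of the 11 called genes whose promoter the RefSeq table used here holds, out of 29 neighbours matched. The 250 bases before 2 of its transcription starts are shown because edgeR called no other distal gene in the summed counts. Both are on the plus strand of GRCm38.p6, the first at chr8:48098842-48099091 before the outermost start and the second at chr8:48109708-48109957 before an inner start, within the first intron of the longest gene model. Capitals mark CCAAT and GGGCGG, searched on both strands.
Dctd outer start: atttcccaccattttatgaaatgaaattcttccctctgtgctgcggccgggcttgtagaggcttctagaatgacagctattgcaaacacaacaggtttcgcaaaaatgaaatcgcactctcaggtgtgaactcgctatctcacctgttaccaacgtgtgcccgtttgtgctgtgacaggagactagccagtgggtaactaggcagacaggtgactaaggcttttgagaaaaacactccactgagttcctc
Dctd inner start: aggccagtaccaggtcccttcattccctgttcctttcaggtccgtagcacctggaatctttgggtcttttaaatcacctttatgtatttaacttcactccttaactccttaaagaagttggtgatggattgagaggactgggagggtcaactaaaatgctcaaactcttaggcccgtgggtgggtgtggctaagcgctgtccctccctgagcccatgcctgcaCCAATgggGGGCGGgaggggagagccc
The first window holds 7 CpG dinucleotides and neither motif, and the second holds 4 CpG dinucleotides and 1 of each motif, without overlap. CCAAT occurs in 33.8% and GGGCGG in 32.7% of all 32851 RefSeq windows of that length. The sequence is that of the reference genome, and the sequence of the KO animals was not measured.

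Within single regions the calls numbered 9 of 80 in frontal cortex, 1 in striatum and 1 in hippocampus. The share of all genes called was 1.74% in frontal cortex, 0.0285% in striatum and 0.0171% in hippocampus. In frontal cortex 5 neighbours were higher in KO, with a background of 1.41%, and 4 were lower, with a background of 0.336%. They are Ubxn8, Gsr, Leprotl1, Saraf and Zdhhc2 among the higher, and Dlc1, Gm5345, Slc7a2 and Dctd among the lower. At an unadjusted p under 0.05 the counts were 25 of 80 in frontal cortex against 15.3% of all genes, 24 in striatum against 13.5% and 16 in hippocampus against 9.89%. The groups did not overlap for 27 neighbours in frontal cortex against 21.3% of all genes, for 29 in striatum against 18.9% and for 21 in hippocampus against 16.3%.

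Leaving out 1 library at a time left 0 to 10 neighbours called in frontal cortex. The count was 0 without KO replicate 1, 2 without KO replicate 2, 4 without KO replicate 3, 3 without WT replicate 1, 3 without WT replicate 2 and 10 without WT replicate 3. Over all genes these fits called 11, 27, 54, 88, 71 and 825 of 17545 in the same order. Without KO replicate 1, 19 of 80 had an unadjusted p under 0.05. With sequencing lane as a term within frontal cortex none of the 9 stayed under an adjusted p of 0.05 by edgeR, 22 of 80 neighbours had an unadjusted p under 0.05, and 29 of 17545 genes were called. The share of all genes at an unadjusted p under 0.05 is not given here for that fit or for the fit without KO replicate 1. The log2 fold changes of the 9 were close to those without lane, with Saraf at 0.48 in both fits, Dctd at −1.40 against −1.36, and Ubxn8, which moved among the most, at 0.35 against 0.44. Lane 4 held 1 library of each genotype, lane 5 held 1 WT and 2 KO libraries, and lane 3 held 1 WT library. In striatum all WT libraries were on lane 5 and the KO libraries on lanes 3 and 4, so the effects of lane and of genotype cannot be told apart there.

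The size of the difference varied between regions for some neighbours, and edgeR's test of that variation called Prag1 alone. DESeq2's likelihood ratio test called Prag1, Cldn23 and Mfhas1, the last at 5.56 Mb on the proximal side, among 94 of all genes. Mfhas1 was named after its values were seen. Prag1, a pseudokinase that takes part in small GTPase signalling 5.09 Mb from Pcm1, measured 35.0, 34.5 and 29.8 CPM in WT hippocampus and 71.6, 79.6 and 69.6 CPM in KO hippocampus. In frontal cortex it measured 64.2, 49.0 and 63.0 CPM against 56.2, 49.7 and 61.6 CPM, and in striatum 38.1, 36.3 and 33.6 CPM against 50.9, 49.1 and 39.1 CPM. The KO level in hippocampus thus lay above both genotypes' levels in frontal cortex, while the WT level lay below them. The log2 fold changes were 1.15 in hippocampus (SE 0.0934, adjusted p = 0.0188, edgeR), 0.37 in striatum and −0.07 in frontal cortex. The test of a difference between regions, in which libraries of an animal count as independent, gave Prag1 the only call among the 80 neighbours (adjusted p = 0.0499, edgeR), against 0.0114% of all genes. That call was lost with another filter, with lane as a covariate and in most fits without 1 library. At an unadjusted p under 0.05 the same edgeR test took 11 of 80 neighbours against 5.54% of all genes.

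The hippocampal call of Prag1 was lost without KO replicate 1 and without any 1 of the 3 WT libraries, and with lane as a term. Its log2 fold change stayed between 1.07 and 1.21 over all alternatives run for that region.

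Cldn23, a claudin of the family that forms tight junctions, lies 5.41 Mb from Pcm1 and next to Prag1. It measured 0.364, 1.02 and 0.630 CPM in WT striatum and 5.76, 5.19 and 4.45 CPM in KO striatum. In frontal cortex it measured 0.410 to 0.632 CPM against 0.852 to 1.05 CPM, and in hippocampus 0.118 to 0.683 CPM against 0.399 to 0.714 CPM. The groups are clearly separate in striatum, separate by a narrow margin in frontal cortex and overlapping in hippocampus. The log2 fold changes were 2.92 in striatum (SE 0.313, adjusted p = 0.0466, edgeR), 0.87 in frontal cortex and 0.48 in hippocampus. The test of a difference between regions gave an unadjusted p of 0.000858 and an adjusted p of 0.315 (edgeR), while DESeq2's likelihood ratio test called Cldn23. The striatal call was lost when any 1 library other than WT replicate 3 was left out, with lane in a fit of 18 libraries (adjusted p = 0.0631, edgeR) and with the replicate block (adjusted p = 0.137), but not with the block by animal number (adjusted p = 0.0204). The log2 fold change stayed between 2.54 and 3.36 over all alternatives run for that region.

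Sgcz, a sarcoglycan of the dystrophin-linked membrane complex, spans a long gene body that ends 2.58 Mb from Pcm1. It measured 4.54, 6.86 and 6.53 CPM in WT striatum and 11.6, 11.1 and 10.4 CPM in KO striatum, and 4.00, 4.16 and 3.43 CPM against 5.81, 5.72 and 5.57 CPM in frontal cortex. In hippocampus its level was between 0.645 and 1.01 CPM in both genotypes. The test of a difference between regions gave an unadjusted p of 0.0339 and an adjusted p of 0.839 (edgeR). Its log2 fold change in the summed counts was 0.71 (SE 0.111, adjusted p = 0.0377, edgeR).

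Zdhhc2, a palmitoyl transferase that acts on synaptic scaffold proteins, and Dlc1, of the cytoskeleton and signalling list, were called in frontal cortex alone. Zdhhc2 measured 79.2, 73.9 and 80.8 CPM in WT and 105, 108 and 97.1 CPM in KO frontal cortex, a log2 fold change of 0.40 (adjusted p = 0.0195, edgeR). Dlc1 measured 105, 96.6 and 106 CPM against 82.5, 78.4 and 87.6 CPM, a log2 fold change of −0.31 (adjusted p = 0.0482, edgeR). A difference between regions was not called for either (adjusted p = 1.0 and 0.746, edgeR). Zdhhc2 shares 17729 bases with Cnot7 on the other strand, Cnot7 shares 4065 with Vps37a, and Cldn22 shares 995 with Wwc2. The strand setting of the counting is not given in the sources used here, so reads there may be split between the genes or dropped, and the values of Zdhhc2, Cnot7, Vps37a and Cldn22 are uncertain. The same doubt applies to other named genes with such overlaps, among them Nrg1 (7256 bases), Ankrd37 (6405), Gtf2e2 (5659), Primpol (4414) and Mfhas1 (1175).

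By what the genes do, 7 of the 11 called neighbours fell in 5 of 8 functional lists, and the other 4, Cldn23, Prag1, AI429214 and Gm5345, were in no list. At an unadjusted p under 0.05 the share over all genes was 17.2%, and the counts of the lists are to be read beside it. DESeq2 called 1203 of all 17545 genes in the summed counts. Among 7 neighbours listed for vesicle traffic and protein processing, 2 rose in the summed counts, Saraf and Leprotl1, 5 had an unadjusted p under 0.05, and the median log2 fold change was 0.147, with Vps37a at −0.17 and Snx25, a sorting nexin, at 0.15 not called by edgeR. Among 5 listed for mitochondria and redox, Gsr rose, Slc7a2 fell and 4 had an unadjusted p under 0.05, and Micu3, a regulator of mitochondrial calcium uptake, had −0.16. Slc7a2 moves amino acids and Ubxn8 acts at the endoplasmic reticulum, so these 2 are not known for a mitochondrial role. Among 6 listed for nucleotide metabolism and genome maintenance Dctd fell and 2 had an unadjusted p under 0.05, and Ing2, Primpol and Cdkn2aip had 0.16, −0.16 and 0.07. Among 4 listed for neuronal membrane, adhesion and guidance Sgcz rose and was the 1 with an unadjusted p under 0.05, and Nrg1, a ligand of ErbB receptors, Fat1 and Tenm3 had −0.20, −0.13 and 0.03.

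The remaining groups held 1 call. Among 4 neighbours listed as secreted or immune Fgl1 fell and was the 1 with an unadjusted p under 0.05, and Msr1, a scavenger receptor of macrophages, Tlr3, a sensor of double-stranded RNA, and Pdgfrl had −0.62, −0.15 and −0.22. None of 7 listed for lipid and fatty acid metabolism passed in the summed counts by edgeR, 1 did by DESeq2 and 2 had an unadjusted p under 0.05, with Zdhhc2 at 0.25, the phosphodiesterase Enpp6 at −0.33 and Ppp1r3b, a subunit that targets a phosphatase to glycogen, at −0.51. None of 7 listed for transcription and RNA passed by edgeR or by DESeq2 and 2 had an unadjusted p under 0.05, with Rbpms, an RNA-binding protein, at −0.46, the deadenylase subunit Cnot7 at −0.07 and Irf2, a transcription factor of the interferon response, at 0.08. Helt, a repressor of that same list, held 27 reads over the WT frontal cortex libraries and 1 over the KO libraries, a ratio of 30.7 with a 95% counting interval from 5.06 to 1260.0. Its adjusted p was 0.0959 in the summed counts and 0.0592 in frontal cortex (edgeR), and edgeR's exact test (adjusted p = 0.000814), the fit without a filter (0.0218) and the replicate block called it in frontal cortex. The exact test also called 1700029J07Rik, another distal gene at 4.62 Mb, there with −0.96 (adjusted p = 0.0177), as did the fit without WT replicate 3 (adjusted p = 0.0376). None of 11 listed for cytoskeleton and signalling passed by edgeR, 1 did by DESeq2 and 2 had an unadjusted p under 0.05, with Dlc1 at −0.18, Ankrd37 at 0.22, Stox2 at −0.07 and the phosphatase subunit Ppp2cb at 0.08. The median over all 80 neighbours was −0.0172, and over all genes tested −0.00536.

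Fut10, a fucosyltransferase family gene at the proximal edge of the interval, 9.98 Mb from Pcm1, set 1 WT animal apart from the other 5 and was singled out after its values were seen. WT animal 1 measured 7.59 CPM in frontal cortex, 10.7 CPM in striatum and 9.97 CPM in hippocampus. The other 5 animals measured between 4.06 and 5.84 CPM in the 3 regions. WT animal 1 was the highest or the lowest of the 6 animals in all 3 regions for 7 of the 57 neighbours whose average log2 CPM reached 1, or 12.3%, and for 10.8% of all 13061 such genes. For each of the other 5 animals that share was between 1.53% and 3.05% of all such genes. Among the neighbours WT animal 2 had 5 of 57, or 8.77%, against its 3.05% of all such genes. The remaining animals had between 0.0% and 3.51% of the neighbours. The 7 neighbours of WT animal 1 include Slc7a2, highest in it, and Gsr and Ubxn8, lowest in it.

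Summed levels of the markers of some cell types differed between the genotypes over the same libraries, while few single markers were called. In frontal cortex edgeR called 1 blood, 1 striatal projection neuron and 1 cortical excitatory marker, and in striatum and hippocampus 0 of each list. Among all single genes, 21.3% in frontal cortex, 18.9% in striatum and 16.3% in hippocampus did not overlap between the genotypes. The 6 blood markers summed to 111 to 176 CPM in WT and 35.6 to 77.6 CPM in KO frontal cortex, 72.5 to 230 CPM and 44.5 to 93.6 CPM in striatum, and 142 to 221 CPM and 54.7 to 83.8 CPM in hippocampus, and none of the 6 was higher in KO in any region. The 8 choroid plexus markers summed to 52.9 to 6080 CPM in WT striatum and 31.5 to 170 CPM in KO striatum, and to 2250 to 6490 CPM against 224 to 4280 CPM in hippocampus, which overlap in both regions. In frontal cortex they summed to 6.24 to 11.3 CPM against 4.25 to 6.21 CPM, with 2 of the 8 higher in KO. The 6 oligodendrocyte markers summed to 1860 to 2480 CPM in WT and 1660 to 1770 CPM in KO frontal cortex, 9290 to 9500 CPM and 5640 to 9240 CPM in striatum, and 4910 to 9830 CPM and 3670 to 6110 CPM in hippocampus. The 5 microglia markers summed to 251 to 333 CPM in WT and 214 to 244 CPM in KO frontal cortex, and overlapped in the other regions. The 4 endothelial markers summed to 133 to 187 CPM against 118 to 126 CPM in frontal cortex and 115 to 170 CPM against 95.2 to 107 CPM in hippocampus, and overlapped in striatum. None of the markers of these 3 cell types was higher in KO in any region. The 6 markers of striatal projection neurons summed to 5200 to 6180 CPM in WT and 6330 to 6730 CPM in KO striatum, where all 6 were higher in KO, and to at most 188 CPM elsewhere. The 5 cortical excitatory markers summed to 2480 to 2520 CPM in WT and 2820 to 2990 CPM in KO frontal cortex, to 1690 to 2200 CPM and 2230 to 2730 CPM in hippocampus, and to at most 96.3 CPM in striatum, with 3, 4 and 0 of the 5 higher in KO in frontal cortex, hippocampus and striatum. The 5 hippocampal markers summed to 771 to 908 CPM in WT and 844 to 1000 CPM in KO hippocampus, which overlap, and to at most 634 CPM elsewhere, with 3, 0 and 3 of the 5 higher in KO in hippocampus, frontal cortex and striatum. The 5 astrocyte markers overlapped between genotypes in every region. No marker of these lists was at 0 in all libraries of a region. Reads on Y-linked genes numbered 2988 to 4306 in the libraries of WT animal 2 and KO animal 2 and 0 to 5 in those of the other 4 animals, so each genotype held 1 male. In such tissue, fewer cells of a type and less RNA per cell cannot be told apart, and the part of these markers in the differences of the neighbours was not tested.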

How the data were processed

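RNA was sequenced from 3 brain regions of 3 WT and 3 KO mice with stranded mRNA kits. The authors trimmed reads with Trim Galore, dropped those under 20 nt, aligned them with STAR to GRCm38 (release 73), kept reads with a single position and deposited HTSeq counts per gene, 1 library per file, without normalization; tool versions and the strand setting are not given in the sources used here. Reads assigned to genes were 86.8% to 89.2%. Positions came from GENCODE M21. Each region was fitted with edgeR 4.0.16 (TMM factors, quasi-likelihood test, R 4.3.3) on genes with at least 10 counts in any library, with Benjamini-Hochberg adjustment over all of them. Counts summed over the 3 regions of each animal were fitted alike, since an animal is the replicate there; animal numbers came from the sample file names, and animals are numbered by their frontal cortex replicate. A region difference was tested as an interaction in 18 libraries. Standard errors are the absolute log2 fold change over the square root of F. Alternatives used DESeq2 1.42.0, limma 3.58.1 voom with animal as a block, other filters and scalings, lane, the replicate number as a block, and leaving out libraries. The fits were tested on simulated data. Precision of single genes comes from the spread between animals. Genes were named if called, if among the 5 tested neighbours nearest on each side, if non-overlapping in all 3 regions with an absolute log2 fold change of at least 0.5, or as up to 4 examples of a functional list by p. The members and the lists were chosen with earlier results of these data known. Figures and tables were made in Python 3.11.15.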

Additional observations from a re-analysis of the deposited data

Results flagged for a closer look

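Prag1 stood out because its difference between KO and WT mice was itself different between brain regions, with an adjusted p of 0.0499 by edgeR's test of the interaction over 18 libraries. It was 1.15 on the log2 scale in hippocampus, 0.37 in striatum and −0.07 in frontal cortex. In hippocampus 3 of 3 KO libraries lay above the 3 WT libraries, in striatum also 3 of 3, and in frontal cortex the groups overlapped. The adjusted p sits at the threshold, and the call was lost when 1 library was left out in all cases but KO hippocampus replicate 3, KO striatum replicate 3 and WT frontal cortex replicate 2. Groups of 3 libraries are too small for a test of single outlying libraries.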

How the results depend on the processing

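Every log2 fold change of a called neighbour kept its sign in the comparison that called it under all alternatives that gave it a value, while the number of calls did not. In the summed counts, where edgeR called 11, leaving out 1 animal gave 0 to 11, leaving out WT and KO animal 1 together gave 0, and DESeq2, voom, other filters and other size factors gave 11 to 14, of which voom lost Prag1 and DESeq2 gave no adjusted p for Fgl1 and Gm5345. Over all genes DESeq2 called 1203 there, voom 992, no filter 307, filterByExpr 249 and DESeq2 size factors 235, against 243 in the main fit. In frontal cortex, against 9, the exact test called 14, lane within the region 0 and the fit without WT and KO animal 1 called 0, and leaving out 1 library gave 0 to 10. Over all genes the exact test called 658 there, against 306 in the main fit. Lane within the region called 29 genes, and leaving out 1 library 11 to 825. In striatum, against 1, DESeq2 called 10, the exact test 9, no filter 7, 1 fit of 18 libraries 7, an adjusted p under 0.1 4, DESeq2 size factors 2, filterByExpr 2, and 18 libraries with lane 0, as did the fit without the 2 animals, and leaving out 1 library gave 0 to 1. Over all genes, against 5, DESeq2 called 488, the exact test 257, no filter 65, 1 fit of 18 libraries 54 and an adjusted p under 0.1 23. DESeq2 size factors called 7 genes, filterByExpr 6, 18 libraries with lane 8 and leaving out 1 library 2 to 5. In hippocampus, against 1, 1 fit of 18 libraries called 9, the same with lane 7, the exact test 6, DESeq2 5, lane within the region 0 and the fit without the 2 animals 0, and leaving out 1 library gave 0 to 1. Over all genes, against 3, 1 fit of 18 libraries called 205, the same with lane 160, the exact test 116 and DESeq2 212. Lane within the region called 2 genes and leaving out 1 library 1 to 11. For the region difference, against 1, DESeq2's likelihood ratio test called 3, filterByExpr 0 and lane as a covariate 0, and leaving out 1 library gave 0 to 1. Over all genes, against 2, the likelihood ratio test called 94 and leaving out 1 library 0 to 22. Fits without libraries have fewer samples, and the cause of the other shifts was not tested.

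Same-numbered WT and KO libraries correlated, after removal of group means, above 0.1 in 2 of 3 pairs in frontal cortex, 1 of 3 in striatum and 2 of 3 in hippocampus, so the numbers were not taken to pair the animals. Every library correlated best with its own number in frontal cortex and not in the other regions, a hint from the data and not from the design. With the replicate block 3 neighbours were called in the summed counts, 0 in striatum, 11 in frontal cortex and 1 in hippocampus. In striatum the label numbers of the WT animals differ from those in the other regions. Paired by animal number instead, the striatal correlations were 0.0635, 0.388 and 0.230, and the replicate block by animal number, chosen after seeing the data, called 8 neighbours there. Animals numbered 2 are the males of both genotypes. No paired analysis of the region difference was run.

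Sign changes occurred in values near 0 that no fit called. In striatum Dlc1 became 0.0008 without a filter and 0.0349 with lane in the fit of 18 libraries, and ran from −0.0331 to 0.0255 as libraries were left out. Zdhhc2 ran from −0.0044 to 0.1515 there. In hippocampus Zdhhc2 ran from −0.054 to 0.293 and became −0.1127 without the 2 animals, and Sgcz ran from −0.0182 to 0.2343 and became −0.0053 with lane. Prag1 in frontal cortex ran from −0.1808 to 0.0033. In the summed counts Mtus1 ran from −0.1424 to 0.037 and Tenm3 from −0.0333 to 0.1424, and they became 0.0534 and −0.0789 without the 2 animals. Depth limits Fgl1, Gm5345 and Helt, which held 0 to 34 reads a library.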
